A study of Mus musculus and Rattus norvegicus with 12 samples.

Results

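Complement and coagulation genes were followed through mouse hearts and cultured rat heart cells in which the JmjC oxygenase gene Jmjd4 had been targeted. The 35 genes encode proteins of the complement cascade (22 genes) and of clotting, its inhibition and the plasminogen system (13 genes), and they were taken by symbol. All 35 were among the 54087 symbols of the mouse table, and 33 of them passed the filter on low counts that left 18094 genes for testing. In the rat table of 28909 symbols 32 had a row, and 29 were among the 15497 genes tested. C1ra, C1s1 and Cd59a had no rat row under those symbols.

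The 12 libraries form 4 groups of 3. The cKO hearts came from mice homozygous for floxed Jmjd4 that also carry MCM, a Cre driven by Myh6, the cardiomyocyte myosin gene (MCM+ Jmjd4f/f), and the flox hearts from Jmjd4f/f mice labelled as controls. Both groups were given tamoxifen, which switches on an inducible Cre, and apex tissue was taken 14 days later. The control genotype names no MCM, so effects of the Cre and of the knockout cannot be told apart. The sources used here do not give the age, sex or strain of the mice. The cultures were neonatal rat ventricular cardiomyocytes (NRVCs) from 1-day-old Sprague-Dawley rats, treated for 48 h with an siRNA against Jmjd4 (siJmjd4) or a control siRNA (siNC). The labels do not say whether NRVC replicates were separate cell isolations, so p-values there reflect the spread among these 6 samples alone, which may be technical.

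Complement is a cascade of plasma proteins that cleave one another. The classical pathway begins when C1q, with its proteases C1r and C1s, binds antibody, dying cells or other surfaces. The lectin pathway begins with sugar-binding proteins and MASP proteases, and both act on C4 and C2 to build an enzyme that splits C3. The alternative pathway amplifies that step through factors B and D, and the late components assemble a pore in the target membrane. Coagulation starts from tissue factor and ends in fibrin, which plasmin dissolves again. The liver makes most of the circulating proteins, but macrophages, fibroblasts and endothelial cells also transcribe many of these genes inside tissues.

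Levels are counts-per-million (CPM), on library sizes scaled by TMM (trimmed mean of M-values). The test was edgeR's two-sided quasi-likelihood test, with p-values adjusted by Benjamini and Hochberg's method for every gene in the table that passed the filter. A gene is called, or passes, at an adjusted p under 0.05. Library totals were 66364405 to 80297797 counts in the hearts and 57174654 to 82187009 in the NRVCs. Flox replicate 3 stood apart: its mitochondrial share of counts was 41.7%, against 14.2% to 24.1% in the other 5 heart libraries, and it lacked any count for 1485 tested genes, where the others lacked 125 to 503. Results are therefore given with and without it. In the NRVCs siNC replicate 3 had 461 tested genes at 0, against 78 to 137 in the others, and was treated in the same way. Jmjd4 itself was at 8.95, 4.92 and 9.63 CPM in cKO hearts and 19, 8.04 and 16.9 CPM in flox hearts (log2 fold change -0.90, SE 0.44, adjusted p = 0.397). In libraries labelled siJmjd4 it was at 3.58, 3.43 and 3.52 CPM, against 3.46, 4.4 and 0.982 CPM in siNC (log2 fold change 0.25, adjusted p = 0.770). The knockdown could not be seen in its transcript, so the direction of each NRVC difference rests on the labels. The counts cover the whole gene, and a Myh6-driven Cre leaves it in heart cells other than cardiomyocytes.

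RefSeq promoters of GRCm38.p6 were at hand for 24 of the 35 genes, as the 250 bases before each gene's RefSeq start. Of these, 6 are shown, those of 2 pairs of neighbouring genes in the classical pathway and of 2 receptor genes, all but C1s1 among the genes that passed the test when flox replicate 3 was left out. They lie at chr4:136886201-136886450, minus strand (C1qb), chr4:136892915-136893164, minus strand (C1qc), chr6:124512371-124512620, plus strand (C1ra), chr6:124542360-124542609, minus strand (C1s1), chr6:122856158-122856407, minus strand (C3ar1) and chr7:24462233-24462482, plus strand (Plaur). Each runs 5′ to 3′ on the strand of its gene, and capitals mark matches to 6 motifs searched on both strands.
C1qb: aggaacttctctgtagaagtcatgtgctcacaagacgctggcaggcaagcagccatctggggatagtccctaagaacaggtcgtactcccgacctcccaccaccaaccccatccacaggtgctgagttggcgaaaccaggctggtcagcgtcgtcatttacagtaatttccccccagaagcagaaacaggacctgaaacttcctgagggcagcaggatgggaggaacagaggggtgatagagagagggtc
C1qc: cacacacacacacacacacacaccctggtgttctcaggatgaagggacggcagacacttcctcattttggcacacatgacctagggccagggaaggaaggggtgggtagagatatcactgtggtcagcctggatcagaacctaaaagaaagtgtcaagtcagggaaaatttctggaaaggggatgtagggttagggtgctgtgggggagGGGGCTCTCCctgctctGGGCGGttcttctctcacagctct
C1ra: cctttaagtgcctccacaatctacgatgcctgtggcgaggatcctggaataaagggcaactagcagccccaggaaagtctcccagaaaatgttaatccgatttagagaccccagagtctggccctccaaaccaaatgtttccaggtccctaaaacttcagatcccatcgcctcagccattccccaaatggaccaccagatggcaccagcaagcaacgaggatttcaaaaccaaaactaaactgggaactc
C1s1: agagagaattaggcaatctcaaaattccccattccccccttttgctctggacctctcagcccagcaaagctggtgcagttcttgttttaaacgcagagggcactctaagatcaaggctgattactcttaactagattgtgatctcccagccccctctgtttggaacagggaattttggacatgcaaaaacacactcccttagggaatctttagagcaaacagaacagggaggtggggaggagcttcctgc
C3ar1: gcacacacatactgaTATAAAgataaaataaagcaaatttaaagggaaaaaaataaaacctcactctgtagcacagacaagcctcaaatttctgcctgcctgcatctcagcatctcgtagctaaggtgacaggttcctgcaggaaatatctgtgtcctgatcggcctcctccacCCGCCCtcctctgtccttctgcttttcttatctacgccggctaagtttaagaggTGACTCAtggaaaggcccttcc
Plaur: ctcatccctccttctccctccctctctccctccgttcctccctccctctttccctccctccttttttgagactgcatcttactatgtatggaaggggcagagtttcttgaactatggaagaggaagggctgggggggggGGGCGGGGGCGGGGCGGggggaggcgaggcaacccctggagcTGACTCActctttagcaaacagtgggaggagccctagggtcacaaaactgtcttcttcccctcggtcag
The motifs were the STAT sequence TTCNNNGAA, the interferon-response motif, the AP-1 sequence TGANTCA, the NF-kB motif, the TATA sequence TATAAA and the GC box GGGCGG. C3ar1 and Plaur each held an AP-1 match, from 22 to 16 and from 69 to 63 bases before the gene's RefSeq start. C1qc held an NF-kB match and a GC box, and neither C1qb, C1ra nor C1s1 held a match to any of the 6. In the GENCODE M21 annotation C1qc, on the minus strand, begins at 136893065 and C1ra, on the plus strand, at 124512405. Most of those 2 stretches, with both C1qc matches, lies inside the gene by that annotation. Parts of some others of the 24 do too. Of the 24 promoters, 4 held AP-1, 2 STAT, 1 the interferon-response motif, 1 NF-kB, 3 TATA and 8 a GC box. Among all 27025 promoters the shares were 6.87%, 7.18%, 3.04%, 3.75%, 13% and 32.9% in the same order. A match is only a run of letters, not a known site. Promoters of Thbd, Plat, Clu, Cfb, C2, C4b, Cfi, Plau, Masp1, C1qa and Vwf were not used here.

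In cKO hearts most complement genes lay above their level in flox hearts, and Clu, which encodes clusterin, was the one that passed the test with all 6 libraries. Of the 33 genes tested, 29 had a log2 fold change above 0 and 4 below, where 50% of all genes lay on either side. The median log2 fold change was 1.01 over the 33 and 0.00 over all genes. One gene was called, higher in cKO, where 0.37% of all genes were called higher and 0.508% in either direction. The lowest cKO value was above the highest flox value for 18 of the 33, and the reverse held for 1 (Tfpi), against 14.9% and 11.2% of all genes. An unadjusted p under 0.05 was found for 16 of the 33, 15 higher and 1 lower, and for 15% of all genes.

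When flox replicate 3 was left out, 14 of 34 genes tested were called, all higher in cKO, where 4.26% of all 19094 genes were called higher and 7.19% in either direction. They were Clu, C2, C1ra, C4b, C3ar1, C5ar1, Plaur, Vsig4, Cfb, Cd55, Plat, C1qa, C1qb and C1qc. The median was then 0.83, against 0.02 over all genes, with 28 above 0 and 6 below (51.3% and 48.7% of all genes). DESeq2's Wald test on all 6 libraries also called 14 higher (5.29% of all genes), and edgeR with a correction for transcript length 7 higher (2.78%). Leaving out any other single library ended all calls, here and over all genes.

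**Figure D1:**
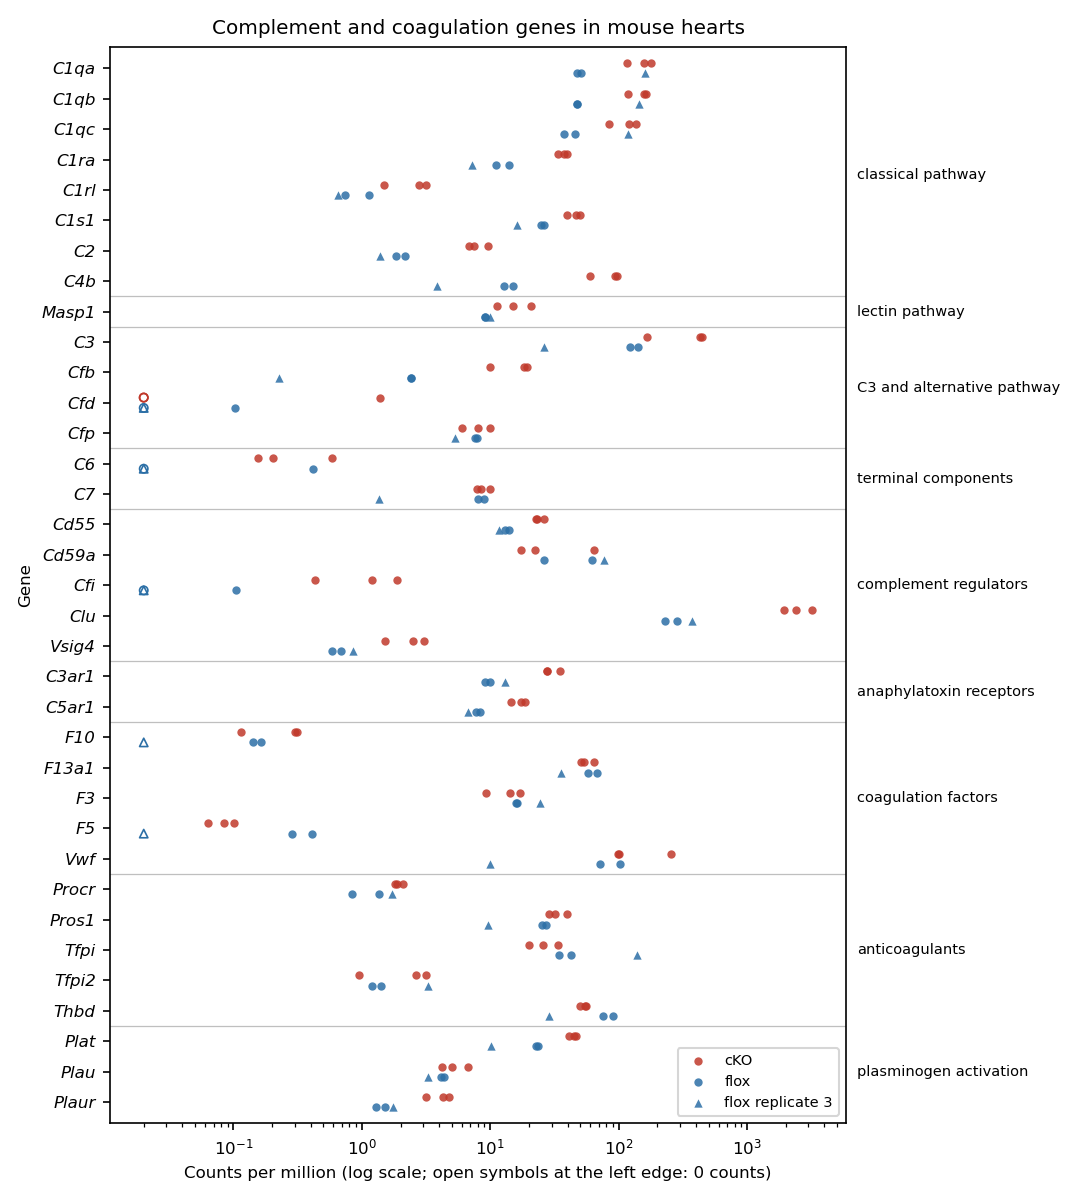
Level of each of the 35 genes in the 6 heart libraries in CPM on a log axis, cKO in red above flox in blue, with flox replicate 3 as a triangle and values of 0 as open symbols at the left edge. Clu lies furthest to the right, and the 3 C1q genes overlap between the groups only through flox replicate 3.

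Clusterin is a secreted chaperone that also blocks assembly of the complement pore. Clu was at 1950, 3220 and 2390 CPM in cKO hearts 1, 2 and 3, against 285, 230 and 371 CPM in flox hearts. Every cKO library was thus several times above every flox library. It rose 8.53-fold in cKO hearts (2517 ± 647.2 against 295.2 ± 71.08 CPM, SD, n = 3), a log2 value of 3.09 (SE 0.45, adjusted p = 0.04899), and the adjusted p was 0.006411 without flox replicate 3. Over 13 alternative settings its log2 fold change stayed between 2.88 and 3.73, and it was called in 6 of them. The gene lies at chr14:65968483-65981547 on the plus strand of GRCm38. Clu alone made up 54.8%, 71.3% and 60.8% of the CPM summed over the 35 genes in cKO hearts, against 25.5%, 24.3% and 29.9% in flox hearts. The sum itself was 3551, 4519 and 3925 CPM in cKO and 1114, 948 and 1239 CPM in flox.

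Per kilobase of transcript, Clu was also the most abundant of the 35, at 1391 ± 357.6 CPM per kb in cKO and 163.1 ± 39.27 in flox hearts (SD, n = 3). C1qa, C1qb and C1qc came next in both groups, at 143.4, 133.6 and 94.37 CPM per kb in cKO and 82.66, 72.86 and 55.59 in flox. Their spreads (SD 30.05, 23.04 and 22.75 in cKO) overlap, so the order among them is not resolved. C3 was 5th in cKO at 67.48 ± 30.72 CPM per kb and 6th in flox at 18.84 ± 12.07. Further down, C4b was 9th in cKO (15.5 ± 3.83) and 21st in flox (1.954 ± 1.101), and Cfb 20th and 28th. Cfi, Cfd, C6, F10 and F5 were the lowest 5 in cKO, all under 1 CPM per kb.

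In the classical pathway all 8 genes had a log2 fold change above 0, with a median of 1.28. For 5 of the 8 every cKO value was above every flox value. Over all genes these shares were 50% and 14.9%. Several of the 8 are neighbours on 1 chromosome. C2, the protease subunit of the classical C3-cleaving enzyme, was at 9.57, 6.83 and 7.45 CPM in cKO and 2.18, 1.83 and 1.38 CPM in flox hearts. Its 4.41-fold difference just missed the threshold (log2 2.14, SE 0.33, adjusted p = 0.05172) and passed without flox replicate 3 (1.99, adjusted p = 0.01286). C4b, which yields the other subunit of that enzyme, was at 97.4, 59.7 and 93.1 CPM in cKO and 15.1, 12.7 and 3.81 CPM in flox hearts. The lowest of those values is again flox replicate 3, and the log2 fold change of 2.99 (SE 0.57, adjusted p = 0.08233) became 2.59 without it (adjusted p = 0.008804). C4a, its near-identical copy, held 0 to 1.43 CPM, and the sum of both was 97.9, 60.2 and 94.5 CPM in cKO against 15.2, 13.5 and 3.81 CPM in flox.

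C1ra, the protease that activates C1s, was at 39.8, 37.3 and 33.5 CPM in cKO against 14, 11.1 and 7.17 CPM in flox hearts. The 3 cKO values were close together and all above flox, with a log2 fold change of 1.77 (SE 0.34, adjusted p = 0.08113; 1.56 and 0.01226 without flox replicate 3). C1s1, encoding the next protease, was at 49.6, 39.4 and 46.5 CPM in cKO against 26.4, 24.6 and 16.2 CPM in flox (log2 1.01, adjusted p = 0.2017, and 0.05606 without that library). C1rl, a C1r-like protease, was at 2.78, 1.49 and 3.13 CPM in cKO against 0.738, 1.13 and 0.649 CPM in flox (log2 1.55, adjusted p = 0.1885). Each of these 3 neighbours lacked overlap between cKO and flox on chromosome 6. The paralogs C1rb and C1s2 were at 0.123 CPM or less and at 0.467 CPM or less in every library.

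The 3 chains of C1q, the recognition molecule made largely by macrophages, differed in a way that turned on 1 library and on its scaling. C1qa was at 115, 177 and 156 CPM in cKO hearts, against 47.6, 50.5 and 160 CPM in flox hearts. C1qb was at 117, 163 and 157 CPM in cKO against 47.2, 47.2 and 143 CPM in flox, and C1qc at 83.4, 137 and 120 CPM in cKO against 37.6, 45.6 and 117 CPM in flox. In CPM, flox replicate 3 thus lay inside the cKO range for each or close to it, while flox replicates 1 and 2 lay below all cKO values. TMM set the effective size of flox replicate 3 at 35419820, against 77084713 to 95305141 in the other heart libraries. Its total of 80297797 was the largest of the hearts. Its raw counts for C1qa, C1qb and C1qc were 5662, 5082 and 4160, against at least 10984, 11108 and 7950 in cKO. With all 6 libraries the log2 fold changes were 0.80, 0.87 and 0.76 (adjusted p = 0.5698, 0.5041 and 0.5534). Without flox replicate 3 they were 1.61, 1.62 and 1.45 (adjusted p = 0.01718, 0.01346 and 0.02834). With total-count scaling of all 6 libraries C1qa and C1qb were at 1.69 and 1.75 (edgeR's adjusted p = 0.0938 and 0.0867). The median of all genes was then 0.54. The chains kept their proportions, with C1qa at 35.2% to 38% of the C1q counts in all 6 libraries. The genes are neighbours at chr4:136880129-136898803, and their transcripts, of 1040 to 1203 bases, are among the shortest of the 35.

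**Figure D2:**
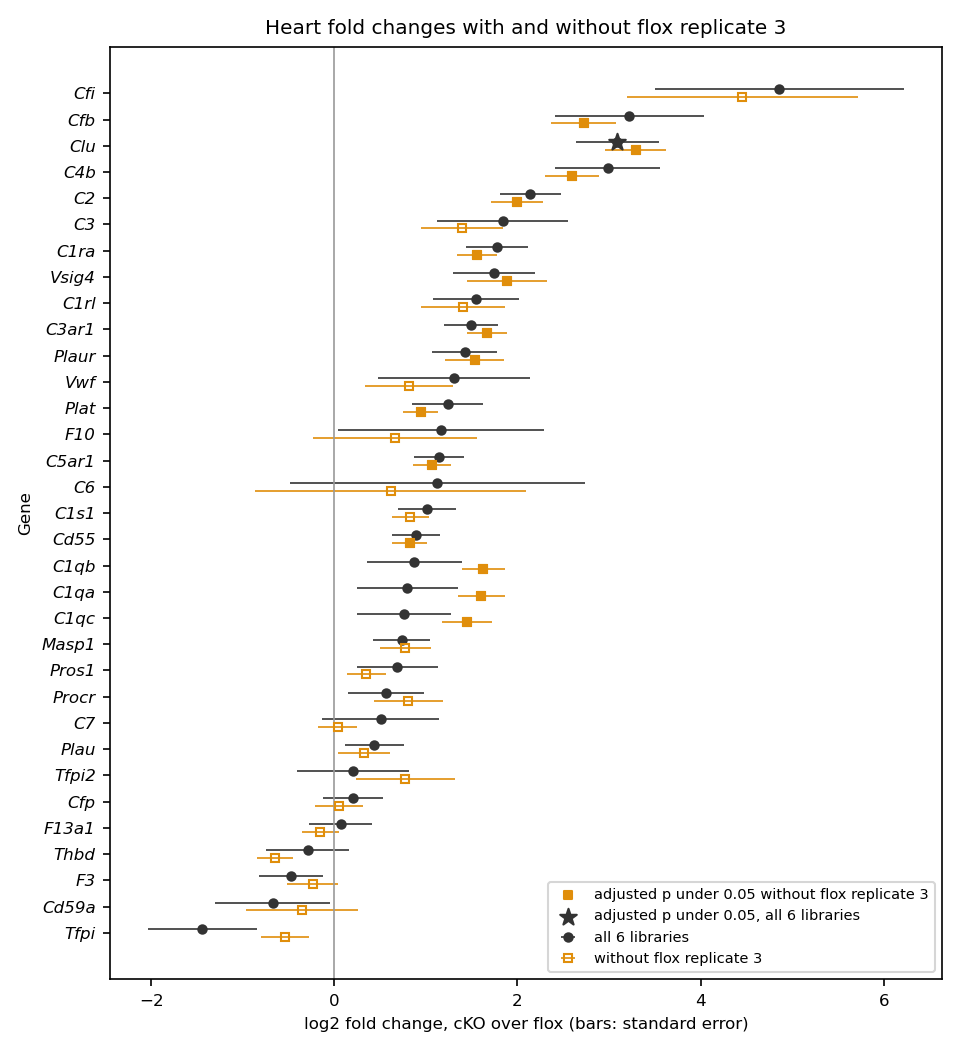
Log2 fold change of cKO over flox hearts for the 33 genes tested with all 6 libraries (black; the star marks Clu, adjusted p under 0.05) and for the same genes without flox replicate 3 (orange; filled where the adjusted p is under 0.05), with standard errors as bars. Most points lie right of 0 in both, and those of the C1q genes move to the right without that library.

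Transcript length went with the level of flox replicate 3. Of 11 tested genes with a transcript under 2000 bases, 10 were higher in flox replicate 3 than in the mean of flox replicates 1 and 2, with a median log2 ratio of 0.58. All 12 genes of 2000 to 3000 bases were lower (median -0.46), and so were 7 of 10 longer ones (median -1.11). For rho, log2 CPM with a prior count of 2 were used, as flox replicate 3 less the mean of flox replicates 1 and 2. Spearman's rho of that difference with length was -0.56 over the 33 genes. It was -0.65 over all 14481 tested genes with a length, which share the library. In cKO replicate 2, set against the other cKO libraries, rho was -0.46 and -0.57. A length correction, fitted in every library, gave a median of 0.98 and 7 called genes (Clu, C2, C4b, C1ra and the 3 C1q genes), with adjusted p = 0.03365, 0.03044 and 0.04846 for C1qa, C1qb and C1qc.

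**Figure D3:**
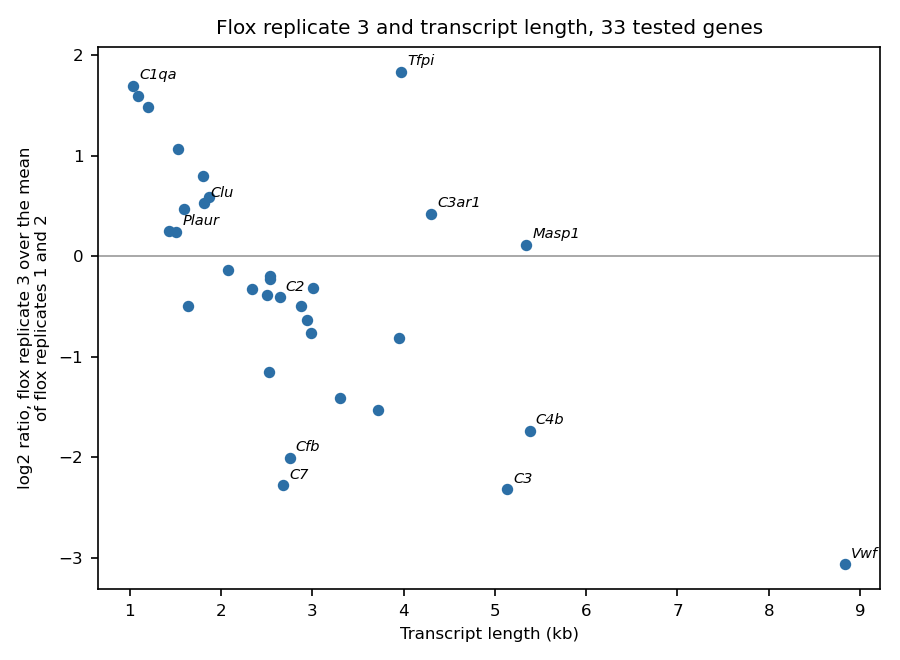
Log2 ratio of flox replicate 3 to the mean of flox replicates 1 and 2 (each value plus 0.5 CPM) against transcript length in kilobases for the 33 tested genes. Short genes such as C1qa lie above 0 and long ones such as Vwf far below it, while Tfpi (1.83), C3ar1 (0.42) and Masp1 (0.11) are the 3 genes of 3000 bases or longer above 0.

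Of the other activating components, C3 is the protein on which all pathways converge. It was at 446, 165 and 429 CPM in cKO hearts and 142, 122 and 26.1 CPM in flox hearts. The groups did not overlap, but cKO replicate 2 lay close to flox replicate 1, and the log2 fold change of 1.84 (SE 0.71) did not pass with or without flox replicate 3 (adjusted p = 0.295 and 0.1159). Cfb, factor B of the alternative pathway, was at 19.4, 10 and 18.2 CPM in cKO and 2.4, 2.43 and 0.226 CPM in flox. Every cKO value was well above the highest flox value, with a log2 fold change of 3.22 (SE 0.81, adjusted p = 0.135) and of 2.72 without flox replicate 3 (adjusted p = 0.01076). Cfb and C2 lie 85 bases apart on chromosome 17, and the annotated gene Gm20547 overlaps both on their strand, so reads of the 3 may not be separable. Of the 35 genes 8, among them C1s1, C1rl, C2 and Cd55, overlap a gene on the opposite strand, and the sources used here do not say whether the counting used strand.

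Masp1, a lectin-pathway protease, was at 11.3, 15 and 20.7 CPM in cKO against 9.11, 9.17 and 9.94 CPM in flox hearts. The groups did not overlap, but the log2 fold change of 0.74 did not pass (adjusted p = 0.3349) and was 0.18 with the length correction. Cfp, or properdin, which stabilises the alternative enzyme, overlapped between groups (log2 0.20). Cfd, factor D, an adipocyte product, had no count in 4 of 6 libraries and was not tested; its highest value was 1.39 CPM in cKO replicate 2. Adipocyte markers summed to at most 0.1412 CPM in any heart library. Of the pore components, C6 was at 0.588 CPM or less throughout, and C7 overlapped between groups (log2 0.51, and 0.04 without flox replicate 3).

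Among the other complement regulators 3 of 4 had every cKO value above every flox value, against 14.9% of all genes. Cd55, a membrane protein that dissociates the C3-cleaving enzymes, was at 26.1, 22.8 and 23 CPM in cKO and 14, 13.1 and 11.7 CPM in flox hearts. Its groups were each narrow and well apart (log2 0.89, SE 0.26, adjusted p = 0.1773; 0.83 and 0.04848 without flox replicate 3). Vsig4, a complement receptor of tissue macrophages that binds C3b, was at 1.51, 2.52 and 3.04 CPM in cKO against 0.687, 0.584 and 0.847 CPM in flox (log2 1.74, SE 0.45, adjusted p = 0.1343; 1.89 and 0.04934). Cfi, the protease that inactivates C3b and C4b, had 114, 34 and 167 counts in cKO and 0, 8 and 0 in flox hearts, or 1.2, 0.432 and 1.87 CPM against 0, 0.104 and 0 CPM. Its log2 fold change of 4.86 (SE 1.36, adjusted p = 0.1668) rests on few flox counts and depends on how zeros are handled. Cd59a, which blocks the pore on host cells, overlapped between groups (log2 -0.67), and its 6 values ran from 17.4 to 77 CPM. Its paralog Cd59b, at 0.713 to 5.82 CPM, may share reads with it.

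The receptors for the small fragments C3a and C5a, found mainly on myeloid cells, were both higher in every cKO heart. C3ar1 was at 34.9, 27.5 and 27.8 CPM in cKO against 9.07, 9.98 and 12.9 CPM in flox hearts. C5ar1 was at 17.3, 14.4 and 18.6 CPM in cKO against 7.7, 8.32 and 6.75 CPM in flox. The log2 fold changes were 1.50 (SE 0.29, adjusted p = 0.08305) and 1.14 (SE 0.27, adjusted p = 0.1185), and both passed without flox replicate 3 (adjusted p = 0.01076 and 0.03117). With the length correction neither did (adjusted p = 0.2061 and 0.05017).

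Of the clotting factors, none of the 4 tested passed, and the groups overlapped for each. F3, tissue factor, the trigger of coagulation, was at 14.2, 17 and 9.31 CPM in cKO and 16.1, 15.9 and 24.2 CPM in flox hearts. Vwf, the platelet-tethering protein of endothelium, was at 257, 101 and 98.1 CPM in cKO and 102, 71.4 and 9.91 CPM in flox. Its log2 fold change of 1.31 (SE 0.83, adjusted p = 0.5311) did not pass, with cKO replicate 1 and flox replicate 3 far from the other values. F13a1, the fibrin cross-linking subunit, had a log2 fold change near 0 (0.07, and -0.15 without flox replicate 3), F10 stayed at 0.313 CPM or less, and F5 was too low to be tested with all 6 libraries.

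Anticoagulant genes went both ways and none was called. Tfpi, the inhibitor of the tissue factor complex, was at 25.8, 33.5 and 19.9 CPM in cKO and 42.4, 34.4 and 138 CPM in flox hearts. It was the 1 gene of the 33 tested with every cKO value below every flox value, although cKO replicate 2 and flox replicate 2 nearly met. Its log2 fold change of -1.44 (SE 0.59, adjusted p = 0.3249) was -0.54 without flox replicate 3 (adjusted p = 0.2856). Thbd, thrombomodulin, which turns thrombin towards activating protein C, was at 54.4, 55.3 and 49.9 CPM in cKO and 90.9, 75.7 and 28.4 CPM in flox hearts. Only flox replicate 3 lay below the cKO values, and the log2 fold change was -0.29 with it and -0.64 without it (adjusted p = 0.1005). Procr, the endothelial protein C receptor, was at 1.8, 1.89 and 2.08 CPM in cKO against 0.84, 1.36 and 1.72 CPM in flox, and Pros1, the cofactor protein S, at 31.8, 28.4 and 39.6 CPM in cKO against 25.1, 27.2 and 9.51 CPM in flox. Neither pair of groups overlapped, but the differences were small against their errors (log2 0.56, SE 0.42, and 0.69, SE 0.44). Tfpi2 overlapped between groups.

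The 3 genes of plasminogen activation had higher means in cKO. Plat, tissue plasminogen activator, was at 45.2, 41 and 46.3 CPM in cKO and 22.8, 23.3 and 10.1 CPM in flox hearts. Plaur, the urokinase receptor of leukocytes and other migrating cells, was at 3.14, 4.26 and 4.79 CPM in cKO and 1.29, 1.52 and 1.75 CPM in flox. In both the groups were clear of each other (log2 1.24, SE 0.39, adjusted p = 0.2061, and 1.42, SE 0.35, adjusted p = 0.1254), and both passed without flox replicate 3 (0.94, adjusted p = 0.03109, and 1.53, adjusted p = 0.03662). Plau, urokinase itself, was at 5.06, 4.18 and 6.73 CPM in cKO and 4.36, 4.14 and 3.28 CPM in flox, which overlapped (log2 0.44).

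Further genes of the same pathways were read from a list of their other known members. Of 82 such genes present in the mouse, 43 were tested, with a median log2 fold change of 0.62. Of the 43, edgeR called 0, and 14 had an unadjusted p under 0.05 (12 higher, 2 lower). DESeq2's Wald test called 11 (9 higher, 2 lower). Over all genes the shares were 0.508%, 15% and 9.66% in the same order. F2r, the thrombin receptor, was at 98.1, 99.5 and 125 CPM in cKO against 39.6, 38.2 and 30.7 CPM in flox (log2 1.57, adjusted p = 0.0811). Its groups did not overlap. Itgb2, the shared chain of the leukocyte complement receptors, and Ptx3, a C1q-binding pentraxin, had log2 fold changes of 1.57 and 1.83 (adjusted p = 0.103 and 0.106). Without flox replicate 3, 9 of 46 were called, 8 higher (among them F2r, Itgb2, Ptx3, Itgax, Colec12, Serping1 and Anxa2) and Cpn2 lower. Without that library 7.19% of all genes were called in either direction, and 4.26% of all genes were called higher.

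Marker genes of several cell types differed between the same libraries. The 12 macrophage and monocyte markers summed to 675.3, 766.1 and 922.3 CPM in cKO hearts and 388.5, 372.6 and 592.7 CPM in flox hearts, with 8 of 12 above and 4 below a log2 fold change of 0. Ccr2, a receptor of recruited monocytes, was the 1 marker of the 12 called, and was higher (14.3, 10.8 and 12.2 CPM in cKO against 2.51, 2.92 and 3.64 CPM in flox, adjusted p = 0.0493). Of all genes 0.37% were called higher. Timd4, a marker of resident macrophages, was lower in every cKO heart (0.651, 0.763 and 0.414 CPM in cKO against 2.86, 3.11 and 2.94 CPM in flox, adjusted p = 0.0724). With the length correction edgeR's test did not call Ccr2 (adjusted p = 0.194) but called Timd4 (adjusted p = 0.020). The macrophage markers Mrc1, Cd163 and Lyve1 overlapped between groups (log2 0.77, -0.45 and -0.58). The 8 fibroblast markers summed to 2857, 3124 and 3558 CPM in cKO and 2189, 2156 and 1473 CPM in flox. The 8 endothelial markers summed to 826.1 to 895.2 CPM in cKO and 495 to 1179 CPM in flox, and the 6 cardiomyocyte markers to 19060 to 25490 CPM in cKO and 27920 to 39830 CPM in flox. Hepatocyte markers summed to at most 12.09 CPM, neutrophil markers to at most 10.05 CPM and platelet markers to at most 54.12 CPM, that highest value in flox replicate 3. What part these differences have in the complement values was not tested. In these bulk samples, more cells of a type and more RNA per cell cannot be told apart.

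In the NRVCs none of the 29 genes tested was called, where 1 of 15497 genes was (0.00645%). None had an unadjusted p under 0.05, against 8.71% of all genes, and DESeq2's Wald test also called 0, where it called 1.08% of all genes. The median log2 fold change was -0.13 over the 29 and 0.01 over all genes, with 13 above 0 and 16 below (50.3% and 49.7% of all genes). The groups did not overlap for 5 genes higher (C7, Cd55, Pros1, Tfpi and Thbd) and 1 lower (Vwf) in siJmjd4, against 22.4% and 17.8% of all genes. Without siNC replicate 3, 0 of 31 were called (0.57% of all genes) and the median was -0.07.

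Clu was the most counted of these genes in the NRVCs too, at 935, 730 and 664 CPM in siJmjd4 and 934, 910 and 1720 CPM in siNC. Apart from siNC replicate 3, the values of the 2 groups ran together, with a log2 fold change of -0.62 (SE 0.30, adjusted p = 0.379), or -0.25 without that library. C4b was at 3.03, 3.44 and 3.25 CPM in siJmjd4 and 1.51, 9.59 and 16.7 CPM in siNC (log2 -1.51, SE 0.75, adjusted p = 0.379). Its near-identical copy C4a, whose reads may not be told apart from those of C4b, was at 0.647, 0.574 and 9.39 CPM in siJmjd4 and 6.69, 8.52 and 0.415 CPM in siNC, and the sum of both was 3.68, 4.02 and 12.6 CPM in siJmjd4 and 8.2, 18.1 and 17.1 CPM in siNC. The C1q genes were low, at 7.97, 7.24 and 5.46 CPM in siJmjd4 and 6.19, 10.3 and 13.8 CPM in siNC for C1qa. C1qb was at 1.03, 0.956 and 0.78 CPM in siJmjd4 against 1.24, 0.741 and 4.04 CPM in siNC, and C1qc at 1.34, 1.85 and 0.864 CPM in siJmjd4 against 1.57, 2.28 and 3.15 CPM in siNC. In all 3, siNC replicate 3 was the highest library.

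Set against the other siNC libraries, siNC replicate 3 also had levels that went with mouse transcript length. Spearman's rho of its log2 CPM difference with length was -0.26 over the 29 genes and -0.50 over 12999 tested genes. The same library was highest for Cfd, Cfp and Vwf. Cfd was at 0.451, 1.1 and 0.85 CPM in siJmjd4 and 1.05, 0.895 and 3.42 CPM in siNC. Cfp was at 9.64, 7.43 and 6.77 CPM in siJmjd4 and 9.57, 7.8 and 21 CPM in siNC, and Vwf at 11.6, 11.5 and 10.1 CPM in siJmjd4 and 12.1, 11.7 and 20.4 CPM in siNC. It was lowest for F3 (18.2, 19.6 and 25.2 CPM in siJmjd4 against 17.5, 18.3 and 7.85 CPM in siNC), Tfpi (90.5, 99.9 and 105 CPM in siJmjd4 against 85.6, 89.4 and 62.7 CPM in siNC) and Thbd (7.23, 7.04 and 6.63 CPM in siJmjd4 against 5.47, 5.84 and 3.28 CPM in siNC). Cfi was at 0.0462, 0.127 and 0.237 CPM in siJmjd4 and 0.167, 0.494 and 0.302 CPM in siNC. C7, chosen here after its values were seen, was at 153, 166 and 170 CPM in siJmjd4 and 122, 131 and 24.7 CPM in siNC (log2 0.82, SE 0.56, adjusted p = 0.4105). Its log2 fold change was 0.37 (SE 0.07, adjusted p = 0.05846) without siNC replicate 3. C3 had a log2 fold change of 0.03, at 36.4, 41.5 and 55.6 CPM in siJmjd4 and 25.3, 64.5 and 40.6 CPM in siNC. The other members tested had log2 fold changes from -0.46 to 0.80, none of them called.

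**Figure D4:**
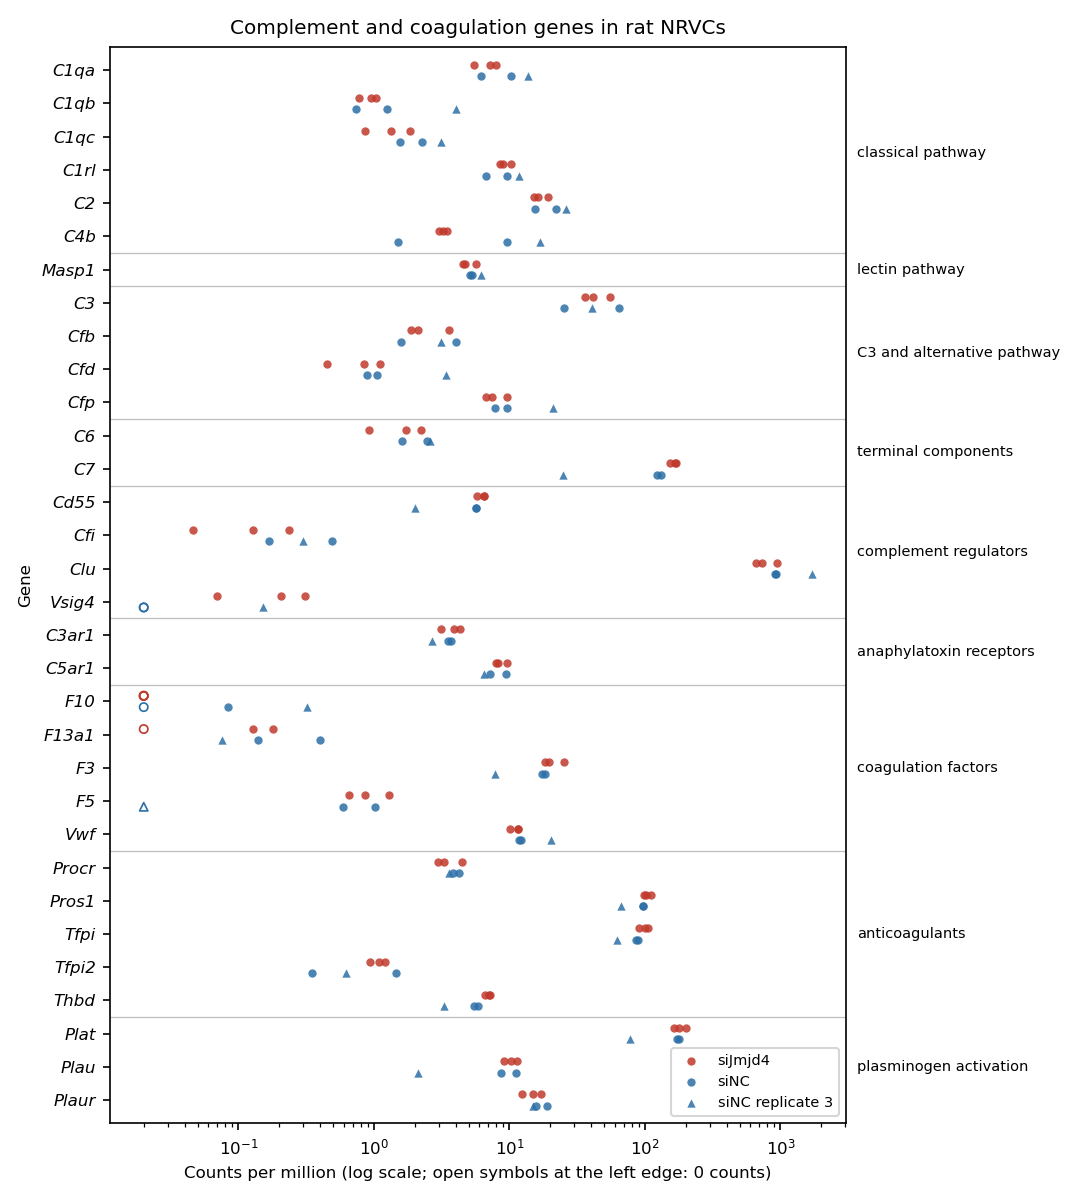
Level of the genes with a rat row in the 6 NRVC libraries in CPM on a log axis, siJmjd4 in red above siNC in blue, with siNC replicate 3 as a triangle and values of 0 as open symbols at the left edge. The groups largely lie on top of each other, and siNC replicate 3 is often the outermost point.

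Of the other genes of these pathways, 45 were tested in the NRVCs. Edger's test and DESeq2's Wald test called 0 of them, against 0.00645% and 1.08% of all genes. Only 1 had an unadjusted p under 0.05, against 8.71% of all genes. That gene, F8, the cofactor lost in haemophilia A, was at 59.3, 67.4 and 76.6 CPM in siJmjd4 and 52.2, 48.4 and 27.6 CPM in siNC (log2 0.67, adjusted p = 0.379). F2r, Vkorc1 and Lman1 followed with log2 fold changes of 0.53, -0.69 and 0.34. The rat genes C1r and C1s were at 598, 610 and 683 CPM and at 331, 367 and 423 CPM in siJmjd4, against 600, 758 and 457 CPM and 296, 433 and 156 CPM in siNC. Markers of several cell types were present in these cultures. The 8 fibroblast markers summed to 30180 to 35660 CPM in siJmjd4 and 29780 to 32090 CPM in siNC, and the 5 cardiomyocyte markers with a row to 3842 to 4559 CPM in siJmjd4 and 4690 to 9001 CPM in siNC. The highest cardiomyocyte sum was that of siNC replicate 3. The 9 macrophage markers with a row summed to 335.6 to 374.1 CPM in siJmjd4 and 337 to 407.7 CPM in siNC.

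The heart and NRVC responses were compared in 1 model of all 12 libraries over 13482 shared symbols, 32 of them among the 35 genes. The difference, the log2 fold change of cKO over flox minus that of siJmjd4 over siNC, passed the test for 3 genes, each higher in the heart response, where 1.34% of all symbols passed in that direction and 1.68% in either. It was 3.71 for Clu (SE 0.52, adjusted p = 0.00548), 2.46 for C2 (SE 0.42, adjusted p = 0.0147) and 4.49 for C4b (SE 1.00, adjusted p = 0.0483). Clu passed under all 16 alternatives run, C2 under 13 and C4b under 5. For Plaur (1.59, adjusted p = 0.0589), Cfi (6.09, adjusted p = 0.0890), Cfb (3.40, adjusted p = 0.104) and C3ar1 (1.299, adjusted p = 0.104) the difference did not pass. Without flox replicate 3 and siNC replicate 3 it passed for 12 genes, 11 higher in the heart response and Thbd lower, where 12.8% of all symbols passed in either direction. Species, age, cell mixture, time and method of targeting all differ between the systems and cannot be told apart. The p-values of the difference also rest on the spread among NRVC libraries, which may be technical.

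**Figure D5:**
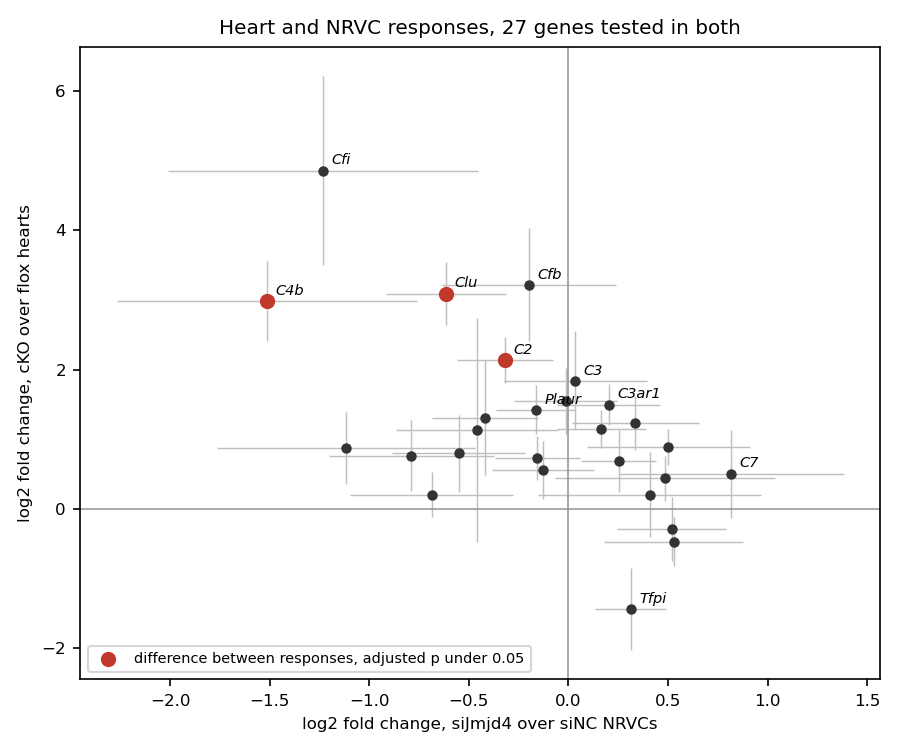
Log2 fold change of cKO over flox hearts against that of siJmjd4 over siNC NRVCs for the 27 genes tested in both, with standard errors as bars. Red points mark Clu, C2 and C4b, for which the difference between the responses had an adjusted p under 0.05, and most points lie above 0 on the heart axis and within 1 of 0 on the NRVC axis.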

How the data were processed

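For each system the authors deposited a single table of raw counts by gene symbol, per the file headers, with no normalization apparent in the values. Per the submitters' processing notes, the tools were HISAT2 2.1.0, StringTie 1.3.4 and edgeR 3.20.9, on builds mm10 and rn6, in roles that are not stated. The sources used here give no library kit, strand setting, annotation or counting rule. Groups came from the labels. RNA was extracted with TRIzol, per the labels' protocols.

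After filterByExpr and TMM scaling, the 6 libraries of each system were fitted with a robust quasi-likelihood model (edgeR 4.0.16, R 4.3.3). Standard errors are the size of the log2 fold change over the root of F. Responses were compared by a contrast of 4 group means fitted to 12 libraries, on symbols present in both tables, ignoring case. Alternatives were DESeq2's size factors and Wald test (1.42.0), total-count scaling, no filter, a replicate block, a transcript length offset (loess, span 0.3) and leaving out libraries. With 3 libraries a group, calls depend strongly on single libraries. Replicates differed well beyond sampling noise, by a chi-square of 26.1 or more per degree of freedom, so each was kept as its own sample. That spread does not show whether the NRVC replicates were separate cell isolations. Lengths and positions are from GENCODE M21 (GRCm38, that is mm10) and were found for 80% of the mouse genes tested and, through the mouse symbol, 83.9% of those of the rat. The code was tested on simulated counts.

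The members, gene lists and tests were chosen with earlier results of these data known. CPM per library are given for genes called with all libraries or without flox replicate 3 or siNC replicate 3, and for up to 12 more per system with the smallest p. Of the other pathway genes, those called are named, otherwise up to 4, and some results are not reported here. Cell type markers were in 11 lists. All columns of the tables matched a sample.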

Additional observations from a re-analysis of the deposited data

Results flagged for a closer look

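For 3 genes the heart response and the NRVC response differed by the test of the difference itself. The log2 fold change of cKO over flox hearts minus that of siJmjd4 over siNC NRVCs was 3.71 for Clu, 2.46 for C2 and 4.49 for C4b. In each the heart value was above 0 (3.09, 2.14 and 2.99) and the NRVC value below it (-0.62, -0.32 and -1.51), with no NRVC value passing its own test. Over the 16 alternatives the difference ran from 3.27 to 4.15 for Clu, from 2.13 to 2.80 for C2 and from 3.36 to 4.99 for C4b, with adjusted p-values of edgeR's test from 0.000722 to 0.0352, from 0.00406 to 0.0677 and from 0.0106 to 0.145. The NRVC values of C4b varied most among siNC libraries, at 1.51, 9.59 and 16.7 CPM, and part of its reads may belong to C4a. For all 3 genes the p-values also rest on NRVC spread that may be technical.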

How the results depend on the processing

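In the hearts, edgeR called 1 of the 33 genes tested with all 6 libraries, and 0.508% of all genes. The count was 0 with DESeq2's size factors (0.459% of all genes), 7 with the length correction (5.76%) and 0 with a replicate block. DESeq2's Wald test called 14 (9.66% of all genes). With 1 library left out, 14 of 34 were called without flox replicate 3 (7.19% of all genes) and 0 without any other (0 of all genes). Without flox replicate 3 and cKO replicate 2, a pair chosen after seeing the data, 20 of 34 were called (18 higher, with Tfpi and Thbd lower). There 19.1% of all genes were called. The median log2 fold change of 1.01 was 0.95 to 1.09 with 1 of the other libraries left out and 0.83 without flox replicate 3, and 1.61 with total-count scaling, where that of all genes was 0.54. In the NRVCs the count of 0 became 2 of 30 without siNC replicate 3 and siJmjd4 replicate 1, also chosen afterwards (C7 higher, Clu lower), where 15.8% of all genes were called. For the difference of responses, 3 of 32 genes became 5 with total counts (2.54% of all symbols called), 1 to 8 with 1 library left out (8 without flox replicate 3, at 6.57% of all symbols; 1 without each siJmjd4 library in turn, at 0.424% to 0.505%) and 12 without flox replicate 3 and siNC replicate 3 (12.8%). The sign held in every alternative for 29 of 33 heart and 22 of 29 NRVC genes. The others changed sign in at least 1 setting. With libraries left out singly or in the pairs above, the log2 fold change ran from -0.15 to 0.29 for F13a1, -0.12 to 0.78 for Tfpi2 and -0.68 to 0.042 for Thbd in hearts, and in NRVCs from -0.20 to 0.19 for C1rl, -0.24 to 0.44 for C3, -0.050 to 0.33 for C3ar1, -0.54 to 0.12 for Cfb and -0.11 to 1.65 for F5. With the length correction F13a1 was at -0.21 in hearts, and C3, C3ar1, Plaur and Procr at -0.48, -0.10, 0.12 and 0.13 in NRVCs. With total counts F3 and Thbd were at 0.18 and 0.093 in hearts, and C1rl at 0.11 in NRVCs, or 0.018 with the replicate block. The causes were not tested. Deviations of same-numbered libraries from their group means had correlations of 0.36, -0.48 and -0.33 in hearts and -0.14, -0.02 and -0.15 in NRVCs. Such deviations also followed transcript length, so these values cannot decide whether the replicate numbers pair the samples. The replicate block called 0 of all heart genes. Genes under about 1 CPM, such as Cfi, Cfd, C6, F5 and F10, are limited by depth, 3 counts being 0.0315 to 0.0847 CPM in the heart libraries.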

Other observations

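Fibroblast and mesothelial markers, which mark cell types known to transcribe complement genes, were read beside them. The 8 fibroblast markers had a median log2 fold change of 1.02 in cKO over flox hearts, with 6 above 0 and 2 below. Of the 8, edgeR's test called 0, 4 had an unadjusted p under 0.05, and DESeq2's Wald test called 3. Over all genes 50% lay above 0, and the other shares were 0.508%, 15% and 9.66% in that order. The 6 mesothelial markers summed to 116.9, 78.71 and 66.43 CPM in cKO hearts and 43.73, 37.58 and 36.76 CPM in flox hearts, so the groups did not overlap, and all 6 had a log2 fold change above 0. Red cell markers summed to 216.8, 1171 and 362.5 CPM in cKO hearts and 1382, 479 and 2297 CPM in flox hearts, with a wide range in both groups. Smooth muscle and pericyte markers summed to 766.1 to 988.6 CPM in cKO hearts and 562.2 to 1427 CPM in flox hearts. Of these 6 markers 3 had a log2 fold change above 0 and 3 below. Cnn1 alone among them was called by edgeR's test, higher in cKO (adjusted p = 0.0387). It was at 14.2, 14.5 and 15 CPM in cKO against 1.5, 0.934 and 2.29 CPM in flox. The part of all these markers in the values of the complement and coagulation genes was not tested.

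Of regulators outside the 35 genes, Serping1, chosen after its values were seen, was abundant in the hearts. It encodes the C1 inhibitor of the C1r and C1s proteases and was at 282, 323 and 255 CPM in cKO hearts and 101, 92.9 and 143 CPM in flox hearts. Every cKO value was above every flox value, but the gene did not pass edgeR's test with all 6 libraries (log2 1.35, adjusted p = 0.136).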
